A study of Danio rerio with 8 samples.

Results

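The vacuolar H+-ATPase (V-ATPase) genes of the deposited count table were taken as all rows whose gene name begins with atp6v0, atp6v1, atp6ap or tcirg1. The rule found 28 of 24221 genes, of which 10 encode subunits of the V0 membrane sector, 13 subunits of the V1 catalytic sector and 5 accessory proteins. They lie on 17 chromosomes of the zebrafish assembly GRCz11. Their transcripts were measured in macrophage-lineage cells of rraga mutant zebrafish and of wild-type siblings.

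The cells were GFP-positive cells carrying the mpeg:GFP tag, in which the macrophage gene promoter mpeg drives green fluorescent protein, and were isolated by flow cytometry. All larvae were of the TL strain, were raised with PTU, a blocker of pigment formation, and were dissociated at 6 days post fertilization after being scored as mutant or wild type at 4 and 5 days. rraga encodes RagA, a small GTPase that brings mTORC1 to the lysosome. Its mutant allele and the number of larvae pooled are not stated in the labels. The mutant group held 4 libraries with 24940664 to 30911560 counts and the sibling group 4 libraries with 25530526 to 29147340. Libraries carry the numbers of their table columns, 1, 2, 4 and 5 in each genotype. The titles call them biological replicates, but whether they came from separate clutches is not stated, so p-values measure only the spread between these libraries.

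rraga transcript was at 193, 220.4, 195 and 189 CPM (CPM is the count of a gene relative to the TMM-scaled total of its library) in mutant libraries 1, 2, 4 and 5 and at 129, 135, 137 and 114 CPM in sibling libraries 1, 2, 4 and 5. Every mutant library was above every sibling library, so the transcript was not lost in the mutants. mpeg1.1, the macrophage gene whose promoter drives such reporters, was at 65.5 ± 23.7 CPM in mutants and 231 ± 13.2 in siblings (SD, n = 4).

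The V-ATPase is a rotary proton pump. Its V1 sector hydrolyses ATP on the cytosolic side and turns a rotor whose membrane ring, in V0, carries protons into lysosomes, endosomes and phagosomes, where acid is needed for the hydrolases of macrophages to digest what the cells take up. The pump also binds the Ragulator complex at the lysosome surface and is part of the amino acid sensing machinery that acts through the Rag GTPases. In mammals many V-ATPase genes are targets of the MiT/TFE transcription factors, which mTORC1 restrains.

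The 17 listed markers of the macrophage lineage, all of them tested, summed to 8834 to 10010.4 CPM in mutants against 11350 to 15992 CPM in siblings. 10 of them fell and 1 rose, where 13.9% of all tested genes were called lower and 14.5% higher. The marker that rose was spi1b, at 1428 ± 47.5 CPM in mutants and 685 ± 75.8 in siblings. Levels of many of these markers thus moved with the genotype, but not of all. The genes mfap4, marco, ptprc and apoeb were among those not called. The largest parts of the sums were apoeb and lcp1, of which lcp1 fell. Listed markers of other cells were present too. Skeletal muscle markers summed to 611 to 5062 CPM in mutants against 3917 to 6083 CPM in siblings, keratinocyte markers to 424 to 1173 against 1232 to 2080, and pigment cell markers to 659 to 7236 against 990.2 to 4585. Of 13 tested keratinocyte genes 5 were lower and 0 higher, where 13.9% of all tested genes were called lower. The keratinocyte genes krt4, krt91, icn, cdh1 and tp63 were among those not called. Of 15 tested muscle rows and 10 tested pigment cell genes 0 were called in either direction. Neutrophil markers summed to 662 to 1988 CPM in mutants against 712 to 2621 in siblings. Of 6 tested neutrophil rows 2 were lower, both of them named mmp13a. The neutrophil genes mpx, npsn, cpa5 and nccrp1 were not called in either direction. Markers of ionocytes, epithelial cells of the skin of which some are rich in V-ATPase, summed to 27.1 to 52.5 CPM in mutants against 126 to 201 CPM in siblings. The largest part of the sibling sums was atp1a1a.4, at 95.1 ± 40.2 CPM in siblings and 13.7 ± 10.4 in mutants. Of 13 tested ionocyte genes 3 were lower and 0 higher. Among the 3, slc4a1b was at 1.87 ± 1.01 CPM in siblings and 0.280 ± 0.253 in mutants. It passed the filter on low counts, given below, through the sibling libraries, so its value is a description and not a call. The ionocyte genes foxi3a, gcm2, rhcgb and slc9a3.2 were not called in either direction. Neuronal markers stayed at 8.28 to 31.3 CPM in all libraries. In bulk samples fewer cells of a type and less RNA per cell cannot be told apart.

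Which parts of the pump changed was asked with edgeR's quasi-likelihood test of mutant against sibling libraries, fitted over 16086 genes. 21 of the 28 V-ATPase genes passed the filter on low counts. Of these 17 rose and 0 fell at a Benjamini-Hochberg adjusted p under 0.05. Over all tested genes 14.5% were called higher and 13.9% lower. No V-ATPase gene was lower at an unadjusted p under 0.05, and DESeq2 also called 0 lower. By sector 5 of 7 tested V0 genes rose, 10 of 11 V1 genes and 2 of 3 accessory genes. The median log2 fold change over the 21 genes was 1.08, against -0.09 over all tested genes. Among the 17 genes that rose, folds ran from 1.73 for atp6v0a1a to 3.45 for atp6v0a2b, and 12 of them reached a fold of 2, as did 6.3% of all tested genes. With library number as a block the same number, 17, rose, against 17.8% of all tested genes. In that fit atp6v1b2 was lower (edgeR adjusted p = 0.0276), as were 16.6% of all tested genes. That value is described below and not taken as a call.

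Together the 28 genes took 1.57%, 1.81%, 1.68% and 1.505% of the counts of mutant libraries 1, 2, 4 and 5. The same genes took 0.739%, 0.857%, 0.827% and 0.731% of the counts of sibling libraries 1, 2, 4 and 5. The genotypes did not overlap, and the mean share was 1.64% ± 0.134 in mutants against 0.789% ± 0.0630 in siblings (SD, n = 4). Within each library number the mutant share was 2.04 to 2.12 times the sibling share. The V0 genes went from 0.242% ± 0.0179 to 0.594% ± 0.0617 of counts, V1 from 0.377% ± 0.0338 to 0.733% ± 0.0539, and the accessory genes from 0.170% ± 0.0120 to 0.313% ± 0.0272. Without tcirg1b and atp6v0ca, the V0 genes with the highest CPM (not scaled by length), the share of the other 26 was 1.16% ± 0.0865 in mutants against 0.615% ± 0.0544 in siblings.

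Levels of different genes were set side by side as CPM per kilobase of the gene length in the table. In siblings the subunits with the highest summed level were E of V1, at 599.8 ± 27.4 CPM per kilobase, and the proteolipid c of V0, at 579 ± 87.0, which did not differ beyond their spread. In mutants subunit c stood first, at 1916 ± 313 CPM per kilobase, above E at 1195 ± 72.7. Apart from A and d, the other subunits and the AP1 and AP2 proteins lay between 145 and 425 CPM per kilobase in siblings. The catalytic subunit A was lower, at 70.8 ± 28.8 in siblings and 155 ± 59.7 in mutants, and subunit d of V0 was at 0.0358 ± 0.0260 and 0.0577 ± 0.0296. These levels rest on deposited lengths that may not match the transcripts present, so the order is a description.

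**Figure D1:**
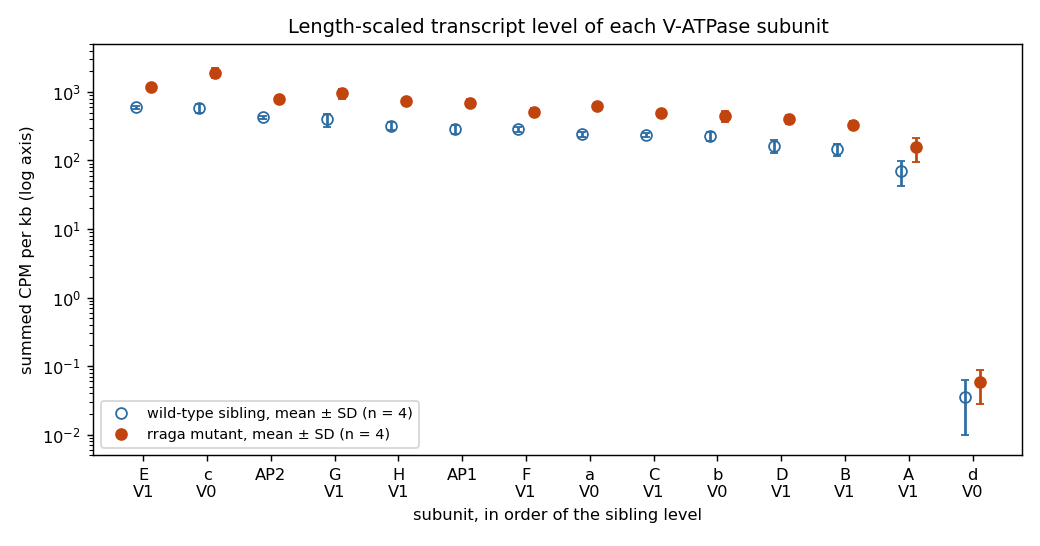
Summed CPM per kilobase of gene length of the genes of each subunit (log axis; points are means and bars SD of 4 libraries; open, siblings; filled, mutants), in order of the sibling level. Subunits E and c lie highest, subunit A lies at 70.8 in siblings, and subunit d lies near 0.04 to 0.06 in both genotypes.

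In almost every subunit with several genes a single paralog held most of the transcript, and it was the same paralog in both genotypes for every subunit with a tested gene. In siblings atp6v0ca held 99.5% ± 0.135 of subunit c per kilobase, atp6v1ab 99.97% ± 0.0538 of A, atp6v1ba 99.5% ± 0.523 of B and atp6ap1b 99.9% ± 0.0579 of AP1. atp6v1e1b held 88.0% ± 1.46 of E, tcirg1b 77.6% ± 1.17 of a, and atp6v1c1a 68.1% ± 1.13 of C. The dominant paralogs of a, c, A, B, C, E and AP1 all rose. Of the lesser paralogs, atp6v0a1a, atp6v0a2b, atp6v1c1b and atp6v1e1a also rose, and 4 did not pass the test.

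**Figure D2:**
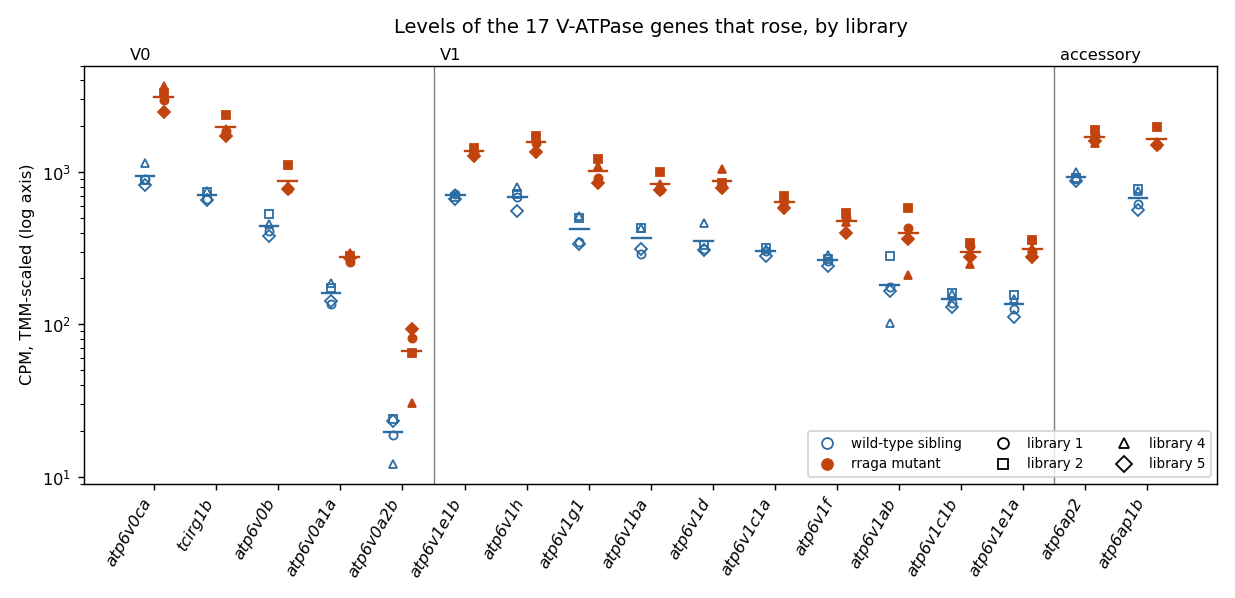
Level of the 17 V-ATPase genes that rose, in CPM on a log axis, for each of 8 libraries (open blue, siblings; filled red, mutants; symbols give the library number; horizontal lines are genotype means), grouped by sector. In 16 genes every mutant library lies above every sibling library, and in atp6v1ab the mutant library 4 lies within the sibling range.

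Subunit a of V0 holds the paths by which protons enter and leave the ring, and its isoforms place the pump on different membranes. tcirg1b encodes an a3 isoform, the class that serves lysosomes and the osteoclast surface in mammals (ENSDARG00000105142, GRCz11 chromosome 14, 16777308 to 16810489, minus strand). It stood at 665, 735, 750.3 and 659.6 CPM in sibling libraries 1, 2, 4 and 5 and at 1853, 2387, 1918 and 1733 CPM in mutant libraries 1, 2, 4 and 5. Every mutant library was above every sibling library. The rise was 2.81-fold (log2 fold change 1.49, SE 0.124, edgeR adjusted p = 4.3e-05), and the two-sided exact permutation p of its levels was 0.0286, the minimum for groups of 4. Among the 28 genes of the name rule, tcirg1b was the only one on the chromosome of rraga, 2.68 Mb from it. The gene named rpl26 or atp6v0e1, given below with subunit e, lies on that chromosome too. Of the 535 tested genes of that chromosome 17.2% were called higher. Linked differences between the mutant and sibling chromosomes cannot be told apart from the genotype.

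Some osteoclast markers also differed between the genotypes. Of 6 tested genes 3 rose, where 14.5% of all tested genes were called higher. The gene nfatc1 was lower, as were 13.9% of all tested genes. It passed the filter on low counts through the sibling libraries, where it is higher, so its value is a description and not a call. The listed genes acp5a and tnfrsf11a were not called in either direction. The list summed to 3845 to 7581 CPM in mutants against 1416 to 3411 in siblings. Most of that sum was the protease gene ctsk, at 5675 ± 1514 against 2271 ± 825 CPM, while the osteoclast fusion gene ocstamp stood at 63.1 ± 21.3 against 14.5 ± 6.16 CPM and the osteoclast transcription factor gene nfatc1 at 0.265 ± 0.190 against 1.03 ± 0.653 CPM. Their part in the tcirg1b level was not tested.

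Among the other a genes, atp6v0a1a, whose mammalian counterpart is best known from synaptic vesicles, was at 137, 174, 188 and 141 CPM in sibling libraries 1, 2, 4 and 5. In mutant libraries 1, 2, 4 and 5 it was at 255, 283, 293 and 275 CPM. The ranges did not overlap, and the rise of 1.73-fold was the lowest of the 17 genes (log2 fold change 0.79, SE 0.123, edgeR adjusted p = 0.00146). atp6v0a2b, of the a2 class that serves the Golgi in mammals, was at 18.7, 23.9, 12.2 and 23.1 CPM in siblings and at 80.9, 64.4, 30.3 and 93.2 CPM in mutants, in the same library order. All mutant libraries were higher, and library 4 was the lowest of both genotypes. Its rise was 3.45-fold (log2 fold change 1.79, SE 0.340, edgeR adjusted p = 0.00412), from 19.5 ± 5.37 to 67.2 ± 27.3 CPM.

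tcirg1a, the second a3 gene, was at 13.0, 11.5, 18.04 and 11.1 CPM in sibling libraries 1, 2, 4 and 5, and at 29.2, 5.31, 3.39 and 36.7 CPM in mutant libraries 1, 2, 4 and 5. Mutant libraries 1 and 5 were above all siblings and mutant libraries 2 and 4 below all of them, so the genotypes overlapped. It did not pass (log2 fold change 0.48, SE 0.655, edgeR adjusted p = 0.637; -0.08 with library number as a block). The ratio of tcirg1a to tcirg1b, a pair added after the data were seen, differed by -1.64 on the log2 scale, with an exact two-sided permutation p of 0.229. Of the summed marker lists of other cells, those of muscle, keratinocytes, pigment cells and neurons were also higher in mutant libraries 1 and 5 than in 2 and 4, and those of neutrophils, osteoclasts and ionocytes were not. Muscle markers summed to 5062 and 2695 CPM in mutant libraries 1 and 5 against 611 and 850.3 in 2 and 4, keratinocyte markers to 1173 and 1111 against 424 and 552, and pigment cell markers to 2350.4 and 7236 against 1117 and 659. In mutant libraries 1, 2, 4 and 5 neutrophil markers summed to 1303, 662, 1988 and 759.8 CPM, osteoclast markers to 5912, 7581, 6129 and 3845 CPM, and ionocyte markers to 52.5, 44.5, 37.3 and 27.1 CPM. Their part in the tcirg1a level was not tested.

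Per kilobase, tcirg1b made up 79.0%, 76.9%, 76.4% and 78.2% of all a transcripts in sibling libraries 1, 2, 4 and 5 and 83.1%, 86.8%, 84.8% and 80.6% in mutant libraries 1, 2, 4 and 5. The mutant shares lay above the sibling shares. atp6v0a1a made up 18.7% ± 1.42 in siblings and 12.6% ± 1.33 in mutants (SD, n = 4). The counts of atp6v0a1a were 20.6% to 25.1% of those of tcirg1b in siblings and 11.8% to 15.8% in mutants, a log2 ratio lower by a difference of -0.68. The genotypes did not overlap in that ratio. Its two-sided exact permutation p was 0.0286, again the minimum, and 0.171 after Benjamini-Hochberg adjustment over the 6 paralog pairs compared. With groups of this size a single pair at the minimum cannot pass that adjustment. The adjusted test therefore could not decide whether both genes rose unequally. The last a genes, atp6v0a1b with 0 to 36 counts a library and atp6v0a2a with 0 in mutants and 0 to 7 in siblings, were too low to test.

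**Figure D3:**
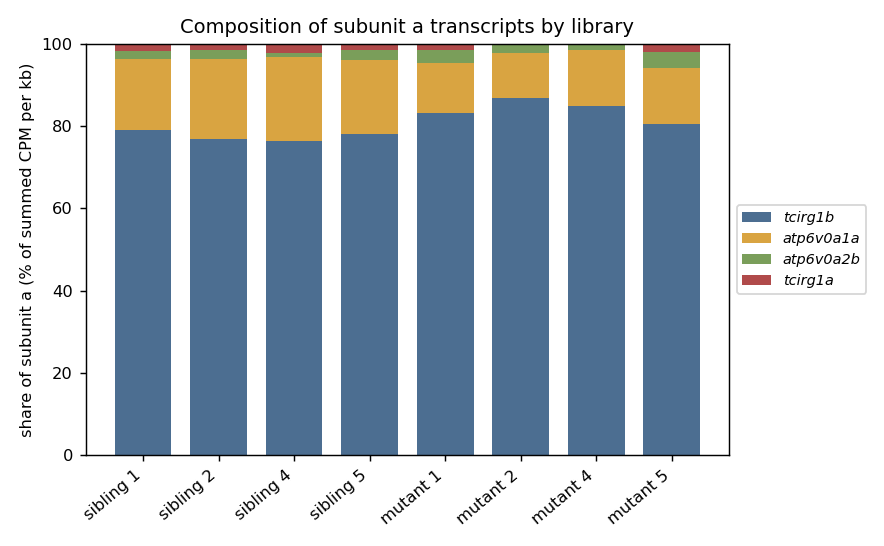
Share of each subunit a gene in the summed CPM per kilobase of that subunit (percent, stacked bars, 1 bar a library). tcirg1b holds 76.4% to 79.0% in siblings and 80.6% to 86.8% in mutants, and atp6v0a2a and atp6v0a1b, each at most 0.139% in any library, are not drawn.

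The proteolipid c forms most of the rotor ring that carries protons. atp6v0ca (ENSDARG00000057853, chromosome 3, 16044680 to 16055463, minus strand) had the highest mean CPM of the V-ATPase genes in both genotypes. It was at 905, 888, 1146 and 819.9 CPM in sibling libraries 1, 2, 4 and 5 and at 2974, 3301, 3698 and 2488 CPM in mutant libraries 1, 2, 4 and 5. The lowest mutant library was above the highest sibling library, and library 4 was the highest of each genotype. The rise was 3.32-fold (log2 fold change 1.73, SE 0.158, edgeR adjusted p = 7.4e-05), and 3.03-fold to 3.72-fold within library numbers. atp6v0cb was at 4.73 ± 0.794 CPM in siblings and 6.27 ± 3.06 in mutants (SD, n = 4) and did not pass (log2 fold change 0.41, SE 0.338, edgeR adjusted p = 0.411). The ratio of atp6v0cb to atp6v0ca was lower in mutants by a log2 difference of -1.42, but the genotypes overlapped (exact permutation p = 0.0571, 0.171 after adjustment over the 6 pairs). Reads shared by these paralogs could move counts between them, and how such reads were counted is not stated in the labels.

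Subunit b, the ring's other proteolipid, is encoded by atp6v0b alone. It was at 408, 533, 458 and 378 CPM in sibling libraries 1, 2, 4 and 5 and at 779.7, 1112, 809 and 775 CPM in mutant libraries 1, 2, 4 and 5. Mutant library 2 stood apart above the other mutant libraries, and the genotypes did not overlap. The rise was 1.96-fold (log2 fold change 0.97, SE 0.157, edgeR adjusted p = 0.00181).

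Subunit d, which couples the ring to the central stalk, had almost no counts. atp6v0d1 (ENSDARG00000069090, chromosome 7, 35086369 to 35094933, plus strand) was counted 1, 4, 3 and 5 times in mutant libraries 1, 2, 4 and 5 and 3, 0, 2 and 4 times in sibling libraries 1, 2, 4 and 5. No other d gene met the name rule, and no gene of the table overlaps atp6v0d1. Its mean level was 0.124 CPM in mutants and 0.0768 in siblings. The muscle gene mylpfa was as low, at 0.0195 and 0.0507 CPM, beside the muscle gene actc1b at 1147 and 2333 CPM. The low count does not show that the cells lacked subunit d. Why atp6v0d1 or mylpfa was low was not tested.

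Subunit e, a small membrane protein, has no gene under the name rule. The gene ENSDARG00000101794, named rpl26 in the deposited table, carries the symbol atp6v0e1 in a reference table of gene names, and RefSeq places rpl26 and atp6v0e1 next to each other on chromosome 14 (assembly GRCz12tu). Its counts were 5610, 4330, 5017 and 5147 in sibling libraries 1, 2, 4 and 5 and 10431, 8295, 8901 and 9639 in mutant libraries 1, 2, 4 and 5. They were higher in each mutant library (353 ± 25.9 against 174 ± 20.98 CPM, log2 fold change 1.02, SE 0.113, edgeR adjusted p = 2.2e-04), and which of both genes they belong to is uncertain. atpv0e2, described as subunit e2 in the table, was at 2.78 ± 0.816 against 3.02 ± 0.640 CPM and did not pass (edgeR adjusted p = 0.822).

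In V1, subunit A carries the catalytic sites. atp6v1ab (ENSDARG00000076318, chromosome 24, 21154120 to 21172122, minus strand) was at 176, 279.5, 101 and 166 CPM in sibling libraries 1, 2, 4 and 5 and at 430.3, 577, 209.7 and 364 CPM in mutant libraries 1, 2, 4 and 5. Library 4 was the lowest and library 2 the highest of each genotype, and mutant library 4 lay below sibling library 2. Within library numbers the mutant was 2.07-fold to 2.44-fold higher. The rise was 2.18-fold (log2 fold change 1.13, SE 0.347, edgeR adjusted p = 0.0366), with adjusted p = 1.2e-04 with library number as a block in the edgeR fit. The exact two-sided permutation test, which leaves out the numbers, gave p = 0.0571. The call was lost with library size alone as the scale (edgeR adjusted p = 0.0723) and without any of mutant libraries 1 and 2 or sibling libraries 1, 4 and 5 (edgeR adjusted p from 0.0753 to 0.0979). Leaving out mutant libraries 1 and 5 together, a choice made after the data were seen, lost it too (edgeR adjusted p = 0.0891). atp6v1aa, the other A gene, had 0 to 5 counts a library.

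Subunit B alternates with A in the V1 head. atp6v1ba was at 289, 432, 430.1 and 314 CPM in sibling libraries 1, 2, 4 and 5 and at 757, 995, 829.6 and 764 CPM in mutant libraries 1, 2, 4 and 5. The genotypes did not overlap and the rise was 2.28-fold (log2 fold change 1.19, SE 0.163, edgeR adjusted p = 7.2e-04). atp6v1b2, its paralog, was at 0.913, 1.09, 1.06 and 3.97 CPM in sibling libraries 1, 2, 4 and 5 and at 0.365, 0.219, 0.156 and 1.99 CPM in mutant libraries 1, 2, 4 and 5.

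Library 5 was the highest of each genotype for atp6v1b2, and the mutant was lower within each number. The gene did not pass without the block (log2 fold change -1.34, SE 0.852, edgeR adjusted p = 0.279) and had a log2 fold change of -1.74 with library number as a block (edgeR adjusted p = 0.0276, with 16.6% of all tested genes called lower in that fit). It passed the filter on low counts through the sibling libraries, where it is higher, so that value is given as a description and not as a call. The ratio of atp6v1b2 to atp6v1ba differed by -2.97 on the log2 scale (exact permutation p = 0.0857, 0.171 after adjustment over the 6 pairs). Pigment cell markers were likewise highest in library 5 of each genotype, at 7236 CPM in the mutant and 4585 in the sibling, and their part in the atp6v1b2 level was not tested.

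**Figure D4:**
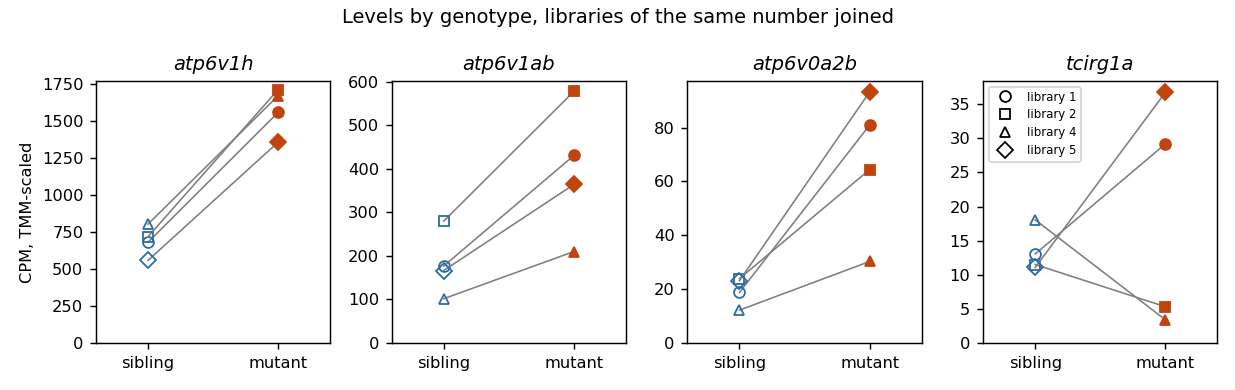
Level in CPM of atp6v1h, atp6v1ab, atp6v0a2b and tcirg1a by genotype, with libraries of the same number joined by a line (open, siblings; filled, mutants). All lines rise for the first 3 genes, library 4 is lowest in both genotypes for atp6v1ab and atp6v0a2b, and for tcirg1a the lines of numbers 1 and 5 go up and those of 2 and 4 go down.

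Subunits D and F form the central stalk that turns inside the head. atp6v1d was at 312, 333, 462 and 309 CPM in sibling libraries 1, 2, 4 and 5 and at 805, 854, 1051 and 789 CPM in mutant libraries 1, 2, 4 and 5. Library 4 was the highest of each genotype and the genotypes did not overlap. With a rise of 2.47-fold (log2 fold change 1.31, SE 0.160, edgeR adjusted p = 3.9e-04) it had the largest fold among V1 genes. atp6v1f was at 259, 269, 283 and 240.0 CPM in siblings and at 496, 535, 467 and 399.8 CPM in mutants, in the same order of libraries. Its rise of 1.81-fold (log2 fold change 0.85, SE 0.112, edgeR adjusted p = 5.9e-04) was the smallest of the V1 genes that rose. atp6v1f overlaps lamtor4, a Ragulator gene on the opposite strand that had 63.8% of its count and also rose (log2 fold change 0.74, SE 0.132). The strand setting of the counting is not stated in the labels, so reads within the overlap cannot be told apart. How far the exons of both genes overlap was not examined.

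Subunits E and G make the peripheral stalks that hold the head still. atp6v1e1b was at 722, 689.9, 728 and 666 CPM in sibling libraries 1, 2, 4 and 5 and at 1340.5, 1447, 1408 and 1281 CPM in mutant libraries 1, 2, 4 and 5. The spread within each genotype was narrow and the rise was 1.95-fold (log2 fold change 0.96, SE 0.0904, edgeR adjusted p = 9.0e-05). Its paralog atp6v1e1a was at 126, 156, 146 and 113 CPM in siblings and 296, 356, 315 and 276 CPM in mutants, a rise of 2.30-fold (log2 fold change 1.20, SE 0.132, edgeR adjusted p = 2.1e-04). Neither gene overlapped between genotypes. The ratio of atp6v1e1a to atp6v1e1b differed by 0.24 on the log2 scale (exact permutation p = 0.114, 0.171 after adjustment over the 6 pairs). atp6v1g1, the only G gene, was at 349.6, 497, 511 and 335 CPM in siblings and 915, 1218, 1101 and 845 CPM in mutants. It rose 2.41-fold (log2 fold change 1.27, SE 0.182, edgeR adjusted p = 9.1e-04), with libraries 2 and 4 above 1 and 5 in both genotypes.

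Subunit C joins the stalks to V0 and leaves the complex when the sectors come apart, and subunit H regulates ATP hydrolysis, which in yeast it inhibits in free V1. atp6v1c1a was at 304, 316, 312 and 282 CPM in sibling libraries 1, 2, 4 and 5 and at 641, 701, 639 and 578 CPM in mutant libraries 1, 2, 4 and 5. It rose 2.11-fold (log2 fold change 1.08, SE 0.0953, edgeR adjusted p = 6.1e-05) without overlap between genotypes. atp6v1c1b was at 139, 159.8, 157 and 131 CPM in siblings and 326, 342, 251 and 276 CPM in mutants and rose 2.04-fold (log2 fold change 1.03, SE 0.127, edgeR adjusted p = 4.1e-04). The ratio of these paralogs differed by -0.06 on the log2 scale (exact permutation p = 0.743, 0.743 adjusted over the 6 pairs). atp6v1c2 had 0 to 13 counts a library. atp6v1h was at 681, 719, 804 and 558 CPM in siblings and 1560.2, 1714, 1674 and 1359 CPM in mutants. Library 5 was its lowest in both genotypes, and it rose 2.28-fold (log2 fold change 1.19, SE 0.135, edgeR adjusted p = 2.5e-04).

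**Figure D5:**
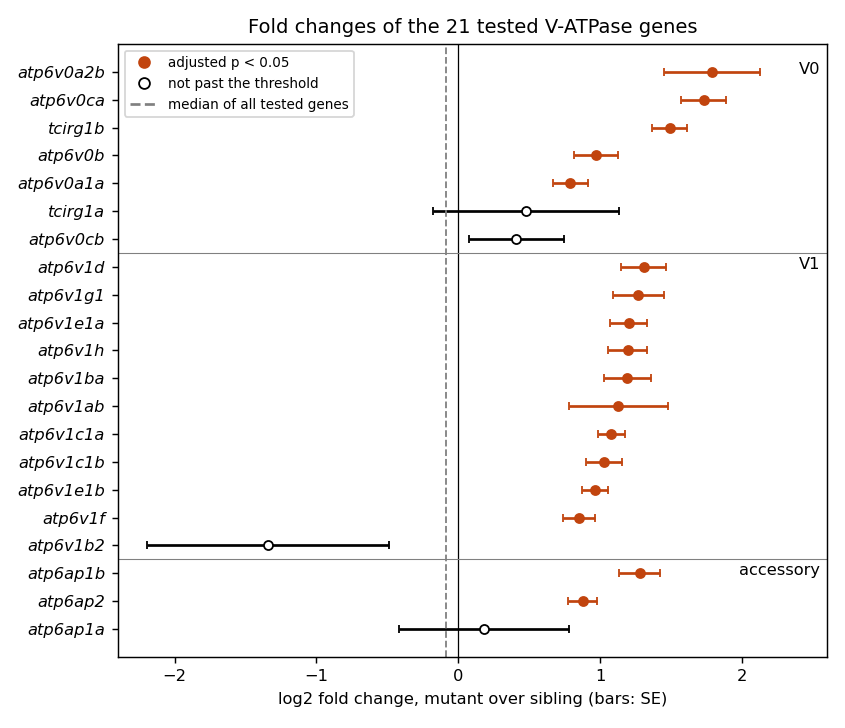
Log2 fold change, mutant over sibling, of the 21 tested V-ATPase genes by sector (points; bars are SE; filled red, adjusted p under 0.05; open, not past the threshold), with the median of all tested genes, -0.09, as a dashed line. The 17 genes that rose lie between 0.79 and 1.79. The open points of tcirg1a, atp6v1b2 and atp6ap1a have the widest errors, and the open point of atp6v0cb lies at 0.41.

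Of the accessory proteins, ATP6AP1 helps to assemble V0 in the endoplasmic reticulum, and ATP6AP2, the prorenin receptor, is a membrane protein bound to V0. atp6ap1b was at 617, 777, 746 and 566 CPM in sibling libraries 1, 2, 4 and 5 and at 1505, 1971, 1573 and 1508 CPM in mutant libraries 1, 2, 4 and 5. It rose 2.42-fold without overlap (log2 fold change 1.28, SE 0.143, edgeR adjusted p = 2.4e-04). atp6ap2 was at 894, 919, 1005 and 878 CPM in siblings and at 1743, 1899, 1542 and 1591 CPM in mutants. Library 4 was its highest sibling library and its lowest mutant library, and it rose 1.83-fold (log2 fold change 0.87, SE 0.105, edgeR adjusted p = 3.5e-04). atp6ap1a, at 1.07 ± 0.562 CPM in siblings and 1.20 ± 0.787 in mutants, did not pass (edgeR adjusted p = 0.853). The ratio of atp6ap1a to atp6ap1b differed by -1.18 on the log2 scale with overlapping genotypes (exact permutation p = 0.143, 0.171 after adjustment over the 6 pairs). atp6ap1la and atp6ap1lb had 0 to 7 counts a library.

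Across the whole set, all 17 genes that rose were higher in the mutant within each of the 4 library numbers, by at least 1.53-fold. They were called from these same libraries. In all but atp6v1ab the direction within numbers follows from the separation given next, so it is a description and no further support. In 16 of the 21 tested genes every mutant library was above every sibling library, against 15.7% of all tested genes. The 4 tested genes that did not pass, tcirg1a, atp6v0cb, atp6v1b2 and atp6ap1a, had mean levels of 0.683 to 18.7 CPM, and the 17 that rose had sibling means of 19.5 to 939.6 CPM. By its sibling mean every gene that rose therefore stood above those that did not. In sibling library 4, however, atp6v0a2b was at 12.2 CPM, below tcirg1a at 18.04 CPM. The 7 genes left out by the filter had at most 36 counts in any library.

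Genes that assemble or regulate the pump were compared beside its subunits. Of 20 names listed for this group 10 were in the table and tested, of which 4 rose and 0 fell, with a median log2 fold change of 0.36. Over all tested genes 14.5% were called higher and 13.9% lower. tmem9b, a lysosomal membrane protein gene, rose 2.04-fold (log2 fold change 1.03, SE 0.115, edgeR adjusted p = 2.4e-04). rnaseka, whose product associates with V0 in mammals, rose 1.83-fold (599 ± 71.5 to 1097 ± 152 CPM), dmxl2, which encodes a subunit of the rabconnectin complex that loads V1 onto V0, rose 2.37-fold (15.2 ± 1.13 to 36.1 ± 9.41 CPM), and vma21, for an endoplasmic reticulum assembly factor, rose 1.39-fold (124 ± 14.7 to 173 ± 15.8 CPM). Their edgeR adjusted p were 0.00116, 0.00144 and 0.0139. vma21 was named after its values were seen, the others by the rule of smallest p. The other 6 tested genes did not pass.

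The mitochondrial ATP synthase, a rotary enzyme of the same ancestry that runs in the direction of ATP synthesis, gave a comparison outside the lysosome. Its genes were taken as the 19 with names beginning with atp5, a rule that does not set subunits apart from other genes. Of these 3 rose and 0 fell, a share near the 14.5% of all tested genes called higher. Their median log2 fold change was 0.26 against 1.08 for the V-ATPase genes. The rises were 1.53-fold for atp5mc1, from 382 ± 44.8 to 583 ± 48.0 CPM, 1.33-fold for atp5f1b, from 1597 ± 123 to 2125 ± 172 CPM, and 1.34-fold for atp5mc3a, from 297 ± 25.6 to 396 ± 60.8 CPM. The edgeR adjusted p of these rises were 0.00355, 0.0173 and 0.0328. Each of these folds was below 1.73, the lowest of the V-ATPase genes that rose. The difference between both groups of genes was not tested.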

How the data were processed

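The authors deposited unnormalized counts for each Ensembl gene in 8 polyA RNA libraries, prepared with the SMART-Seq v4 kit per the labels' protocols. The submitters' processing notes list GRCz11, featureCounts 1.5.0, StringTie 1.3.3b and HISAT2 2.0.5 without saying which step used which. 16 other per-library columns were not used. Columns were assigned to genotypes by name, and none was tied to a titled sample. No library repeated another of its genotype (chi-square over its degrees of freedom 50.1 to 104.7). Same-numbered libraries deviated together (the correlation of their deviations was 0.160 to 0.373, and -0.231 to 0.00133 where the numbers differed). The numbers, known from the column names alone, were therefore used as pairs in the folds within library numbers and in the fit with a block. The main edgeR test and the exact permutation tests left this pairing out.

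Genes were filtered with filterByExpr (minimum count 10), normalized by TMM and tested in edgeR 4.0.16 (R 4.3.3) by the two-sided quasi-likelihood test without covariates, with Benjamini-Hochberg adjustment over all 16086 tested genes. The procedure was tested on simulated data. SE is the log2 fold change over the square root of F. Alternatives were 2 scalings, 2 filters, DESeq2 1.42.0, limma-voom (limma 3.58.1), library number as a block and libraries left out. Paralog ratios used counts plus 0.5 and an exact permutation test (SciPy 1.17.1). The gene length of the deposited table, a value of another kind than the counts, gave CPM per kilobase.

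Values in every library are given for the dominant paralog of each subunit, for other members past the test with at least 10 CPM, and for paralogs that differed in direction. For the assembly and ATP synthase lists the 3 smallest p are named. The members and lists were chosen with earlier results of these data known. Sequences were not used here.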

Additional observations from a re-analysis of the deposited data

Results flagged for a closer look

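In 42 groups of 4 libraries (21 tested genes in each genotype), 5 held a library far from the other 3, where chance gives about 1 in 20. Mutant library 2 was high for atp6v0b (1112 CPM) and atp6ap1b (1971 CPM), and sibling library 4 was high for atp6v1d (462 CPM). Library 5 was high for atp6v1b2 in both genotypes, at 1.99 CPM in the mutant and 3.97 CPM in the sibling.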

How the results depend on the processing

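Of the 17 genes that rose, 16 kept direction and call under all 18 alternatives (log2 fold changes of 0.62 to 2.18, largest adjusted p 0.0279). The remaining gene, atp6v1ab, kept its direction under all 18 but its call under only 11. Library size alone moved the median of all genes from -0.09 to -0.26. In that fit 16 members rose, where 1659 of all 16086 tested genes were called higher and 3123 lower. With library number as a block 17 members were called higher, where 17.8% of all tested genes were. The 1 lower member was atp6v1b2, where 16.6% of all tested genes were lower. It was also called lower without mutant library 5, its highest mutant library. Leaving out mutant libraries 1 and 5, a choice made after the data were seen, gave 1529 lower calls among 17286 tested genes. Of these 2 were members, atp6v1b2 and tcirg1a. The calls of both genes support nothing. atp6v1b2 passed the filter through the siblings, and libraries 1 and 5 are the highest mutant libraries for both genes. Leaving out mutant libraries 2 and 4 instead, the lowest for tcirg1a, moved that gene the other way, to a log2 fold change of 1.32. That value supports nothing either. Leaving out 1 library gave 16 to 17 higher and 0 to 1 lower members. Over all genes these fits called 1919 to 2203 higher and 1671 to 2093 lower, of 16430 to 16733 tested. Direction reversed for tcirg1a with the block (replicate block, -0.0807), without mutant library 5 (-0.0530, with -0.0530 to 0.8293 over single libraries left out) and without mutant libraries 1 and 5 (-1.54), for atp6ap1a without mutant library 5 (-0.28), sibling library 1 (-0.0826; -0.28 to 0.477 over single libraries) or mutant libraries 1 and 5 (-0.62), and for atp6v0cb without mutant libraries 1 and 5 (-0.0163). The log2 ratio of atp6v1c1b to atp6v1c1a ranged from -0.0993 to 0.0259 with 1 library left out, the latter without mutant library 4. With a library left out the exact test cannot pass 0.05, so only values were compared. Without length correction atp6v1e1b held 83.9% of subunit E.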
